A study of Mus musculus with 2 samples.

Results

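The 7 genes Prox1, Maf, Tbx1, Nr2f2, Foxc2, Foxp2 and Gata2 encode transcription factors that act in lymphatic endothelium. They were taken by symbol from the 31053 gene rows of the deposited tables, and each symbol matched 1 row in both libraries. Their levels were measured in 2 single-cell RNA libraries of endothelial cells, the lining cells of vessels, from the ileum. The donors were C57Bl/6 males, wild type in genotype and 8 weeks of age. Sorting took EpCAM- CD45- CD31+ cells, so that epithelium and leukocytes were depleted, with PDPN separating lymphatic (PDPN+) from blood (PDPN-) endothelium. No label sets the libraries apart by treatment or genotype (n = 2), so every comparison is between cell classes within the libraries. Whether the libraries stem from different mice is not stated in the labels. The p-values rest only on how class differences varied between these 2 libraries, with the variance pooled over genes, and that spread may be technical.

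Lymphatic vessels of the gut drain fluid, immune cells and absorbed fat, the last through a blind-ended vessel in each villus. During development they arise largely from veins, where Nr2f2 (COUP-TFII), a nuclear receptor that also maintains venous identity, acts with the homeobox factor Prox1 to set and hold lymphatic fate. Tbx1, a T-box factor, is needed for the growth of lymphatic vessels, in part through the VEGF-C receptor gene Flt4. Foxc2, a forkhead factor, and Gata2, a zinc finger factor shared with blood-forming cells, are known from the valves of collecting vessels, and Foxp2, another forkhead factor, has been linked to the same vessels. Maf belongs to the basic leucine zipper factors.

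Since no deposited annotation tied cells to a class, classes were set by counts of unique molecular identifiers (UMIs, 1 per captured RNA molecule) of marker genes, and none of the 7 genes took part. Lymphatic cells held at least 5 UMIs of Mmrn1, Lyve1 and Reln together, and blood cells at least 5 of Flt1, Cd34, Plvap and Esam. Of the blood cells, venous ones held at least 4 UMIs of Ackr1, Selp and Madcam1 and arterial ones at least 3 of Sema3g, Fbln5 and Stmn2. The rest were called capillary and parted by whether Plvap exceeded Gpihbp1 plus Aqp1 (Plvap capillary) or not (Gpihbp1/Aqp1 capillary). Library 1 gave 76 lymphatic, 71 venous, 147 arterial, 360 Plvap capillary and 231 Gpihbp1/Aqp1 capillary cells, and library 2 gave 979, 270, 883, 2360 and 1083. Cells passing both main gates (1 and 91) or both the venous and the arterial gate (28 and 171) were left out.

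Library 1 held 1026 barcodes and 3806199 UMIs and library 2 held 6302 barcodes and 26645476 UMIs, and 2 barcodes occurred in both. Lymphatic cells were shallower than blood cells, with medians of 2894 and 2130 UMIs against 3470 and 4111. Lymphatic genes outside the gates (Pdpn, Flt4, Thy1 and Sema3d) summed to 3546 and 3108 CPM in lymphatic cells, where CPM is the UMIs of a gene per 1000000 UMIs of the class, and to at most 131 CPM in a blood class. Pecam1, the gene of CD31, was at 571 and 578 CPM in lymphatic cells and at 1151 and 1161 CPM in venous cells. In library 2, RNA of other cell types also lay in some classes: Igkc, an antibody gene, was at 1113 CPM in lymphatic cells, the haemoglobin gene Hbb-bs at 1473 CPM in Gpihbp1/Aqp1 capillary cells and Reg3b, an epithelial gene, at 461 CPM in Plvap capillary cells. Fibroblast genes summed to 360 CPM in arterial and 413 CPM in Gpihbp1/Aqp1 capillary cells of library 2. In these 2 classes, pericyte and smooth muscle genes summed to 273 and 309 CPM in library 2 and to 170 and 185 CPM in library 1. Both sums were lower in the other classes. The venous class of library 2 held 1 cell of 138750 UMIs, 8.07% of the UMIs of its class, with 53 UMIs of the leukocyte gene Ptprc, and several of the venous results below are also given without it or without such cells.

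The genes lie on 5 chromosomes in the mouse build GRCm38 (GENCODE vM21): Prox1 at chr1:190118035-190170714, Maf at chr8:115682942-115707794, Tbx1 at chr16:18580979-18590671, Nr2f2 at chr7:70351944-70366735, Foxc2 at chr8:121116171-121118895, Foxp2 at chr6:14901349-15441977 and Gata2 at chr6:88193891-88207032. Prox1 overlaps the antisense genes Gm28172 and Prox1os, Maf the antisense gene Gm15655, Nr2f2 the gene B130024G19Rik of the other strand and Foxc2 the gene Gm20388 of its own strand. No source used here says whether the counting used strand, so reads of these partners cannot be told apart. RefSeq (GRCm38.p6) gave promoter windows for Prox1, Tbx1, Nr2f2 and Gata2, 4 of the 7. These are shown because the first 3 of them were higher together in lymphatic cells while Gata2 was lower. Each window runs from 250 bases before an annotated start to 50 after it, written 5′ to 3′ on the gene's strand. Prox1, Tbx1 and Gata2 have 2 such starts each, of which the first listed is used, and the 3′ counts do not tell which start was active. Capitals mark matches, on either strand, to the motifs searched.
Prox1 (chr1:190170778-190171077, minus strand): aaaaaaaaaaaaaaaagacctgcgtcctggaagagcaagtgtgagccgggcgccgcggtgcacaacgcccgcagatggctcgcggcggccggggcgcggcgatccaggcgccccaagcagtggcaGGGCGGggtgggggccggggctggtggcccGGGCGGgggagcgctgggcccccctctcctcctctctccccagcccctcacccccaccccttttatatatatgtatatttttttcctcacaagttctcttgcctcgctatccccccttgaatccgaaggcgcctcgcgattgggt
Tbx1 (chr16:18588850-18589149, minus strand): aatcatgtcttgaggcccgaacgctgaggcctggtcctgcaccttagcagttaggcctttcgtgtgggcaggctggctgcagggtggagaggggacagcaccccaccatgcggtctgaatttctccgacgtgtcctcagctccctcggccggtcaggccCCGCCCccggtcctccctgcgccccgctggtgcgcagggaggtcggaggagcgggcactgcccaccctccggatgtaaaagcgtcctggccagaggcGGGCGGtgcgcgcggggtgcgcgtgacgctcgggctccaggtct
Nr2f2 (chr7:70366697-70366996, minus strand): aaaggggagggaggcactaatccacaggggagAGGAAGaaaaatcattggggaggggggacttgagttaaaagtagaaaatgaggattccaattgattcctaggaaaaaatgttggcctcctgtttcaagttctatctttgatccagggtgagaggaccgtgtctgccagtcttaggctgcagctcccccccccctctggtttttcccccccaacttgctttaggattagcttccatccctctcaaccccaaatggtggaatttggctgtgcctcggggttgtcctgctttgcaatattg
Gata2 (chr6:88193641-88193940, plus strand): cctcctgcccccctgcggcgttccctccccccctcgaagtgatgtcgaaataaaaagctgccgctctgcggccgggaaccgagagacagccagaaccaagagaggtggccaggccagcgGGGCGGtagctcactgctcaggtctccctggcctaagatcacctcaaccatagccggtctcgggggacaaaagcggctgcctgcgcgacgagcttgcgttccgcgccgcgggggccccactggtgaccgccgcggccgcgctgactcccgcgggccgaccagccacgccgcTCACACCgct

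The letters searched were AGATAA for the factors of the Gata2 family, TGTTTAC for forkhead factors, AGGTCA for a nuclear receptor half-site, GGTGTGA for T-box factors, TGCTGA for a Maf half-site, ACAATG for Sox factors, AGGAAG for Ets factors and GGGCGG for the GC box. The GC box occurred in the windows of Prox1, Tbx1 and Gata2 and in 35.7% of all 32851 promoter windows of the same length. The Ets letters occurred in the Nr2f2 window alone of the 4 and in 35.4% of all windows, and the T-box letters in the Gata2 window alone and in 3.98% of all. The other motifs had no match in the 4 windows, against 11.2% for the Gata2 family, 3.65% for forkhead, 16.3% for nuclear receptors, 19.5% for Maf and 12.6% for Sox of all windows. No 2 matches overlapped. These matches describe letters only. By GENCODE vM21, the whole Tbx1 window lies in an intron of the annotated Tbx1 gene, the Prox1 window lies outside the annotated Prox1 gene but within Prox1os, and 39 bases of the Nr2f2 window and 50 of the Gata2 window are exonic.

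Between lymphatic and all blood cells, Prox1, Maf, Tbx1, Nr2f2, Foxc2 and Foxp2 were higher in lymphatic cells and Gata2 was lower, in both libraries. All 7 were tested and all 7 passed (edgeR's quasi-likelihood test, Benjamini-Hochberg adjusted p under 0.05), 6 higher and 1 lower, where 46.5% of the 11018 genes tested passed, 21.8% higher and 24.7% lower. The members' median log2 fold change was 5.99 against -0.01 over all genes tested. Since the members were chosen with earlier results of these data known, such counts and medians, here and below, are description and not independent support. Values below are CPM of class sums, and levels are not compared between genes. Intervals are 95% Poisson intervals and cover counting error only.

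Prox1 was at 853 CPM (741 to 977) in the lymphatic cells of library 1 and 567 CPM (538 to 597) in those of library 2, against 9.15 and 8.22 CPM in blood cells. Both lymphatic values lay far above both blood values, and the lymphatic intervals of the libraries did not overlap each other. The log2 fold change was 6.15 ± 0.18 (SE, adjusted p = 5.1e-29). Prox1 UMIs were found in 84.2% and 62.0% of lymphatic cells. With each cell thinned to 2000 UMIs, leaving 54 and 526 lymphatic cells, the shares were 74.1% and 61.2%, with overlapping 95% Clopper-Pearson intervals (60.3 to 85.0% and 56.9 to 65.4%). Thinned to 1000 UMIs, with 72 and 910 cells, they were 54.2% (42.0 to 66.0%) and 37.0% (33.9 to 40.3%), without overlap.

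Maf was at 1494 CPM (1345 to 1655) and 1606 CPM (1557 to 1657) in lymphatic cells and at 4.58 and 7.72 CPM in blood cells. These values gave a log2 fold change of 7.76 ± 0.18 (adjusted p = 2.8e-32). Thinned to 2000 UMIs, 85.2% and 88.6% of lymphatic cells held a Maf UMI, against 0.986% and 1.45% of blood cells.

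Tbx1 was at 302 CPM (237 to 379) and 377 CPM (353 to 401) in lymphatic cells and at 0.610 CPM (2 UMIs) and 1.96 CPM (43 UMIs) in blood cells. The log2 fold change was 7.62 ± 0.24 (adjusted p = 4.5e-28). Thinned shares of lymphatic cells with a Tbx1 UMI were 38.9% (25.9 to 53.1%) and 53.6% (49.2 to 57.9%), and of blood cells 0 of 710 and 0.294%.

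Nr2f2 was at 1037 CPM (913 to 1172) and 1007 CPM (968 to 1047) in lymphatic cells, against 100.1 and 90.3 CPM in blood cells, a log2 fold change of 3.35 ± 0.14 (adjusted p = 1.3e-23). Of its blood UMIs, 159 of 328 in library 1 and 751 of 1977 in library 2 lay in venous cells, and a further 110 and 669 in cells passing both the venous and the arterial gate.

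The forkhead genes had few UMIs. Foxc2 gave 6 UMIs in lymphatic cells of library 1 and 83 in those of library 2, which is 24.5 CPM (8.99 to 53.3) and 33.1 CPM (26.4 to 41.1), against 4.27 and 4.79 CPM in blood cells. Its log2 fold change was 2.66 ± 0.30 (adjusted p = 3.6e-10). Foxp2 gave 13 and 121 UMIs in lymphatic cells, 53.1 CPM (28.2 to 90.7) and 48.3 CPM (40.1 to 57.7), and 1 and 17 UMIs in blood cells. Its log2 fold change was 5.99 ± 0.36 (adjusted p = 2.8e-18). For both genes the lymphatic intervals of the libraries overlapped. A Foxc2 UMI was seen in 5.56% and 7.60% of lymphatic cells thinned to 2000 UMIs and a Foxp2 UMI in 7.41% and 7.41%, so most lymphatic cells gave none of either at this depth.

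Gata2 was the member that was lower in lymphatic cells, at 69.4 CPM (40.4 to 111) and 67.1 CPM (57.3 to 78.0) against 137 and 153 CPM in blood cells. The log2 fold change was -1.23 ± 0.18 (adjusted p = 3.2e-07). Thinned to 2000 UMIs, 7.41% and 11.98% of lymphatic cells held a Gata2 UMI, against 22.4% and 25.8% of blood cells.

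**Figure D1:**
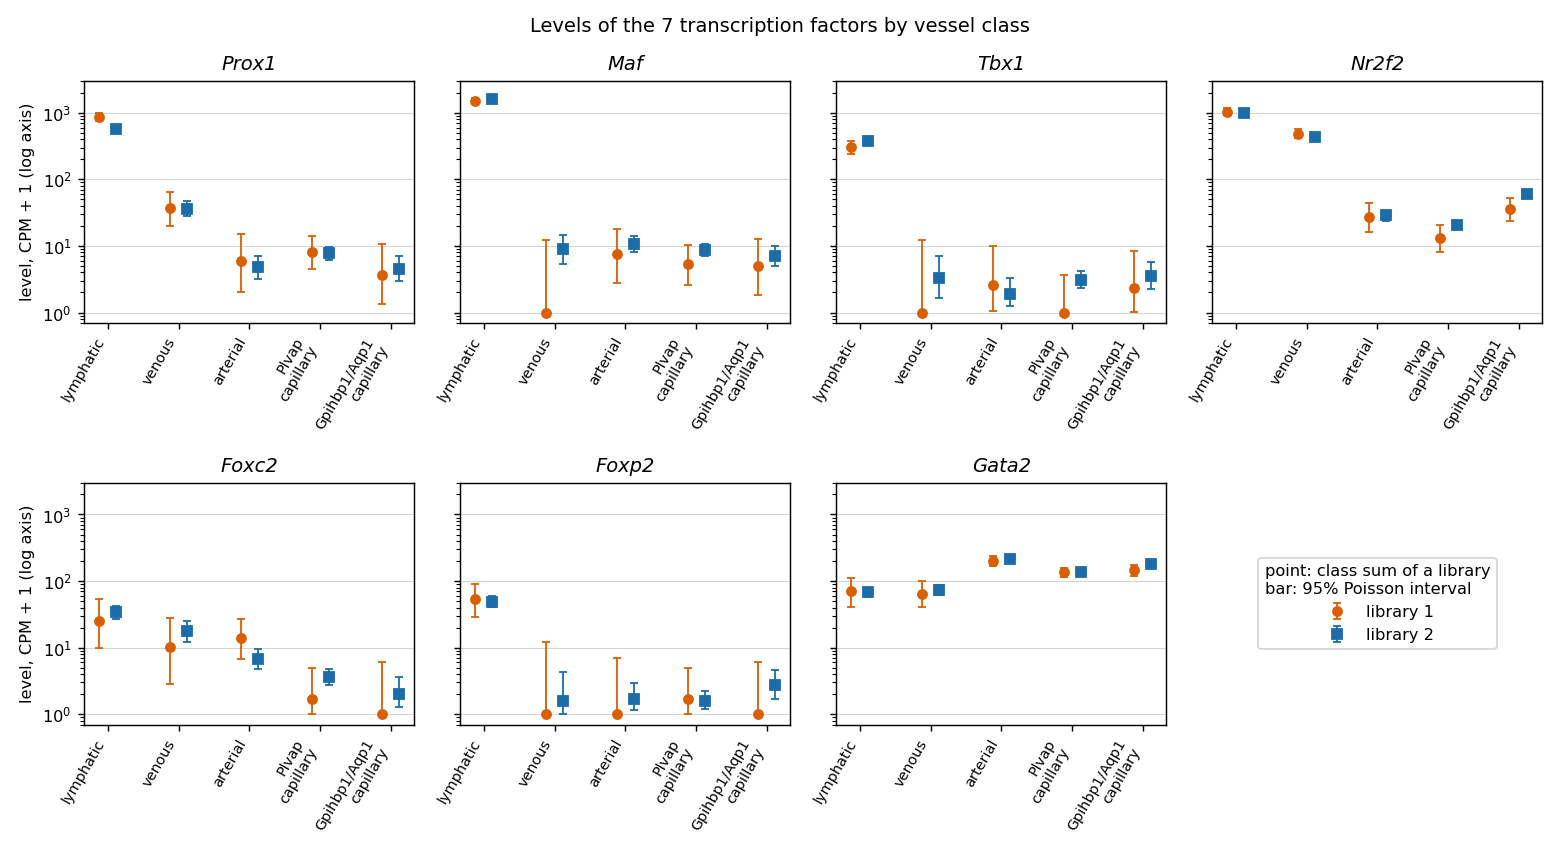
Level of each of the 7 genes in the 5 vessel classes, as CPM + 1 on a log axis; points are class sums of library 1 (circles) and library 2 (squares) and bars are 95% Poisson intervals. Prox1, Maf, Tbx1 and Foxp2 are highest in lymphatic cells, Nr2f2 is high in lymphatic and venous cells, and Gata2 is highest in arterial cells.

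Over the 5 classes the 7 genes fell into different patterns. Maf, Tbx1 and Foxp2 were near the floor in every blood class. Maf stood between 0 and 9.83 CPM there, Tbx1 between 0 and 2.55 CPM and Foxp2 between 0 and 1.78 CPM, and the order among these blood classes is not resolved, as their intervals overlap. Prox1 and Nr2f2 followed an order with venous cells next to lymphatic ones. Prox1 was at 36.5 and 35.5 CPM in venous cells (SD 0.764, n = 2), at 7.22 and 6.73 CPM in Plvap capillary, at 4.91 and 3.80 CPM in arterial and at 2.70 and 3.56 CPM in Gpihbp1/Aqp1 capillary cells. Below the venous cells, the intervals of neighbours in this order overlapped. Nr2f2 was at 484 and 437 CPM in venous cells (mean 460.3 ± 33.7, SD, n = 2), at 35.1 and 58.5 CPM in Gpihbp1/Aqp1 capillary, at 26.2 and 27.7 CPM in arterial and at 12.3 and 19.5 CPM in Plvap capillary cells. For Nr2f2, neighbours below the venous cells had overlapping intervals in library 1 and separate ones in library 2. Foxc2 was at 9.13 and 16.9 CPM in venous, 13.1 and 5.81 CPM in arterial, 0.722 and 2.60 CPM in Plvap capillary and 0 and 1.02 CPM in Gpihbp1/Aqp1 capillary cells, and its venous and arterial ranges overlapped. Gata2 ran the other way: it was at 201 and 217 CPM in arterial, 145 and 177 CPM in Gpihbp1/Aqp1 capillary, 134 and 137 CPM in Plvap capillary and 63.9 and 72.1 CPM in venous cells, the last overlapping its lymphatic values. Its arterial and capillary intervals overlapped between neighbours in library 1 and not in library 2. These intervals cover counting error only, and Gata2 did not pass between the capillary kinds (-0.16 ± 0.12, edgeR adjusted p = 0.41).

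**Figure D2:**
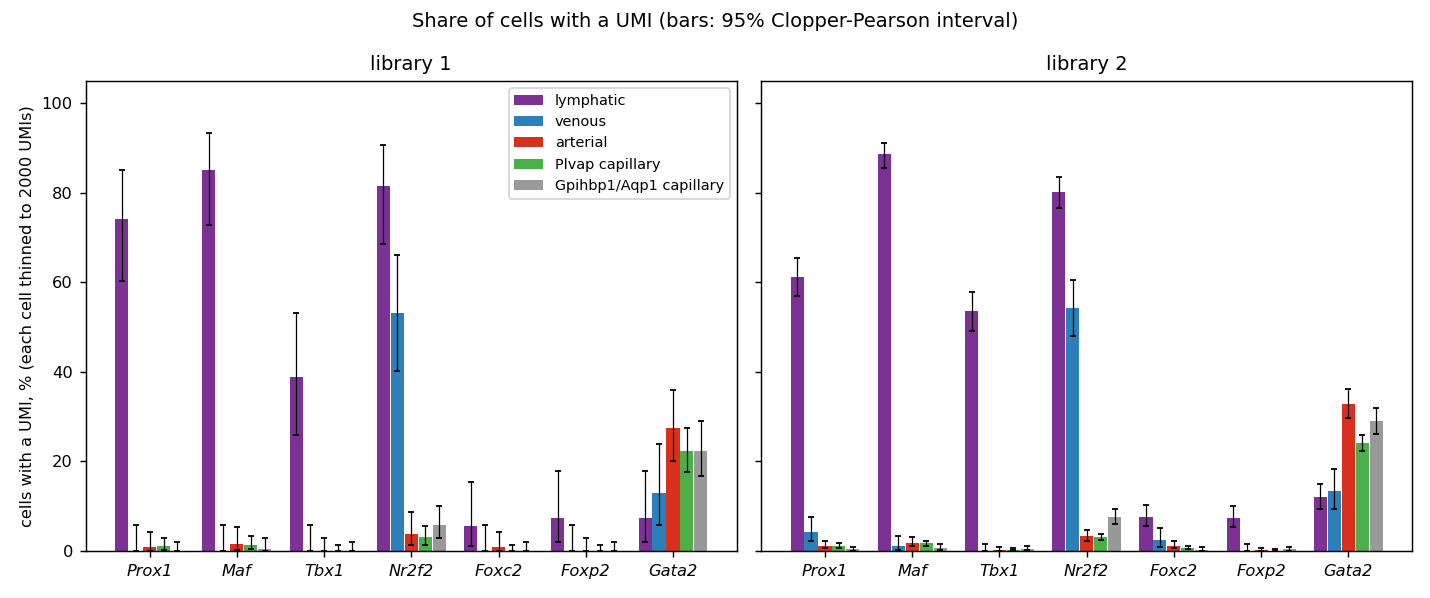
Share of cells with at least 1 UMI of each gene (y axis, percent) after thinning every cell to 2000 UMIs, by vessel class and library; bars are shares and lines 95% Clopper-Pearson intervals. Nr2f2 reaches 53.2% and 54.3% of venous cells, while Prox1 reaches 0 and 4.33% of them.

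Against venous cells alone, the nearest blood class by origin, Prox1, Maf, Tbx1, Foxp2 and Nr2f2 were still higher in lymphatic cells, 5 of 7 members where 39.5% of 10740 genes passed. The genes passing were 18.2% higher and 21.3% lower (1958 and 2283, or 2677 and 1858 with library totals alone as the scaling). Prox1 had a log2 fold change of 3.94 ± 0.18, Maf 7.70 ± 0.23 and Tbx1 7.34 ± 0.34. The Maf value rests on 0 and 14 venous UMIs, and was 8.99 without very large cells and cells with RNA of other types and 9.61 without blood cells holding any UMI of the lymphatic gate genes. Nr2f2 differed by much less, 0.97 ± 0.13 (edgeR adjusted p = 2.2e-08). Foxp2 had 134 lymphatic UMIs over both libraries and 1 venous UMI, a ratio of CPM of 99.9 with a 95% counting interval of 17.6 to 3974. Foxc2 (0.86 ± 0.41, adjusted p = 0.094) and Gata2 (-0.25 ± 0.20, adjusted p = 0.32) did not pass, and Foxc2 passed under 2 of the alternatives, with adjusted p of 0.031 where cells of both the venous and arterial gates counted as venous and 0.035 without scaling factors. These choices of cells to add or leave out were made after seeing the data.

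Between venous and arterial cells, Nr2f2 and Prox1 were higher and Gata2 lower in venous cells. These were 3 of 7 members, where 21.8% of genes passed, 11.1% higher and 10.6% lower (1197 and 1139, or 963 and 1512 with library totals alone). Nr2f2 had a log2 fold change of 4.19 ± 0.17 (edgeR adjusted p = 2.2e-24), Prox1 3.26 ± 0.34 (7.1e-11) and Gata2 -1.48 ± 0.16 (2.8e-10). Without very large cells and cells with RNA of other types Nr2f2 had 4.94 ± 0.18. Foxc2 missed the threshold (1.24 ± 0.47, adjusted p = 0.052) and its libraries differed in direction, being lower in venous cells in library 1. Its adjusted p was 0.016 without very large cells and cells with RNA of other types, and 0.048 and 0.040 under 2 other choices of cells. Maf did not pass (-0.33 ± 0.45), but it was lower in venous cells with adjusted p of 0.014 when blood cells with any UMI of the lymphatic gate genes were left out and of 0.033 without the 5% highest doublet scores. Tbx1 (1.09 ± 1.01) and Foxp2 (0 and 1 venous UMIs, 0 and 3 arterial UMIs) were too sparse to order.

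Against the mean of both capillary kinds, venous cells were higher for Nr2f2 (4.03 ± 0.13), Foxc2 (3.55 ± 0.51) and Prox1 (3.01 ± 0.28) and lower for Gata2 (-0.96 ± 0.15). These 4 of 7 passed where 24.9% of genes did, 14.3% higher and 10.7% lower (1533 and 1144, or 1187 and 1796 with library totals alone). The Foxc2 value rests on 3 and 29 venous UMIs. Without very large cells and cells with RNA of other types these differences were 4.36 for Nr2f2, 3.67 for Foxc2 and -0.87 for Gata2. Arterial cells were higher than capillary cells for Foxc2 (2.31 ± 0.50, edgeR adjusted p = 0.00074) and Gata2 (0.52 ± 0.11, adjusted p = 0.00034), 2 of 7 members where 10% of genes passed, 6.9% higher and 3.11% lower. The Foxc2 difference rests on 8 and 26 arterial UMIs and was 3.37 in library 1 and 1.28 in library 2 on the log2(CPM + 1) scale. Without the library as a block the Gata2 difference no longer passed (adjusted p = 0.060). Maf did not pass (0.55 ± 0.29, edgeR adjusted p = 0.34). It was higher in arterial cells with cells passing both main gates assigned to a class (0.046) and with gates on thinned cells (0.011). Nr2f2 did not pass (-0.16 ± 0.18, adjusted p = 0.80). Without very large cells and cells with RNA of other types it was lower in arterial cells (-0.58 ± 0.20, adjusted p = 0.045).

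Within the capillaries, Nr2f2 was lower in Plvap than in Gpihbp1/Aqp1 capillary cells (-1.41 ± 0.19, edgeR adjusted p = 3.7e-08), and 2 of 7 members passed where 24.2% of genes did, 13.1% higher and 11.2% lower (1402 and 1202, or 1032 and 1785 with library totals alone). Prox1 was higher in Plvap capillary cells (1.13 ± 0.38, adjusted p = 0.023). That call was lost with gates at 3 UMIs (adjusted p = 0.068), with gates on thinned cells (0.13), with equal cell numbers (0.75) and in DESeq2 (0.12). Prox1 UMIs numbered 10 and 70 in the Plvap class and 2 and 14 in the other. Maf did not pass (0.47 ± 0.34, adjusted p = 0.37) but was higher in Plvap capillary cells under 3 choices of cells, with adjusted p of 0.0045 to 0.046. Foxp2, with 1 and 6 UMIs in the Plvap class and 0 and 7 in the other, did not pass (-1.12 ± 0.83, adjusted p = 0.39). With gates on thinned cells it was lower in Plvap capillary cells (-2.46 ± 0.84, edgeR adjusted p = 0.020).

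**Figure D3:**
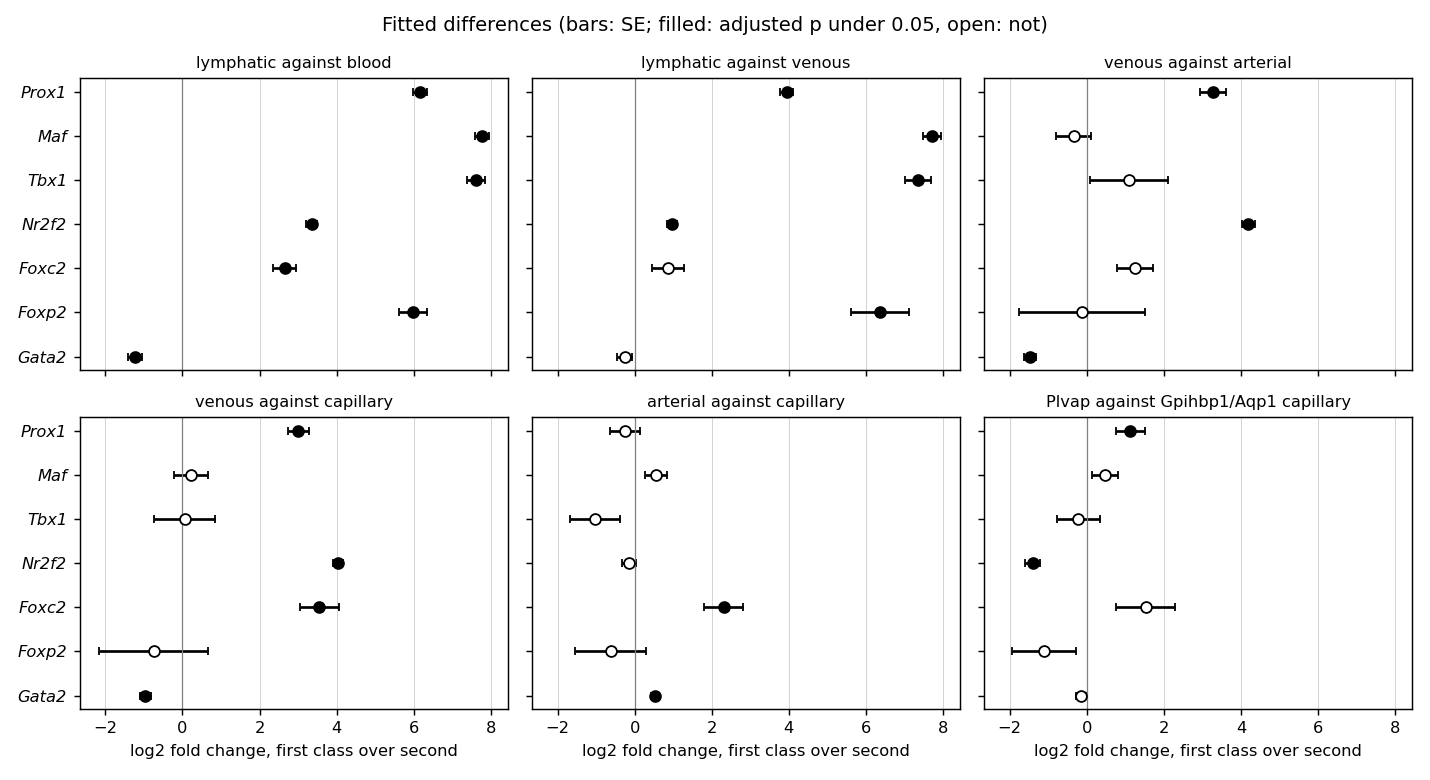
Fitted log2 fold change of each of the 7 genes in 6 comparisons between vessel classes (x axis, first class over second), with the SE as bars; filled points had an adjusted p under 0.05. All 7 points are filled for lymphatic against blood, and Nr2f2 lies at 4.19 for venous against arterial.

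The Prox1 UMIs of venous cells were looked at cell by cell, after their values had been seen. In library 1, 4 of 71 venous cells held Prox1 UMIs (2, 5, 2 and 3). These 4 cells held 0 UMIs of Maf, Tbx1, Mmrn1, Lyve1, Reln and Pdpn, as did the 67 venous cells without Prox1 UMIs. The 4 cells also held 210 UMIs of Selp and 75 of Ackr1, which are genes of the venous gate. In library 2, 36 of 270 venous cells held Prox1 UMIs, 27 of them a single one and 9 of them 2 to 8. Of these 36 cells, 5 held a UMI of the lymphatic gate genes, and of the 234 venous cells without Prox1 UMIs, 21 did. There were 0.23 Maf UMIs per Prox1 UMI in venous cells of library 2 and 0 in those of library 1, whereas lymphatic cells had 2.83 and 1.75. The very large cell described above held 8 of the 61 Prox1 UMIs and 9 of the 14 Maf UMIs of the venous class of library 2, and 1 further cell with 3 Prox1 UMIs held 136 UMIs of the smooth muscle gene Acta2. Without such cells the Prox1 differences were 3.19 ± 0.35 from arterial and 2.93 ± 0.29 from capillary cells, and without blood cells holding any UMI of the lymphatic gate genes 3.0 ± 0.36 and 2.96 ± 0.30, all 4 past the threshold.

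Thinned to 2000 UMIs, a Prox1 UMI was found in 0 of 62 venous cells of library 1 (95% Clopper-Pearson upper limit 5.78%) and in 4.33% (2.18 to 7.62%) of those of library 2. The other blood classes gave 0 to 1.01% in library 1 and 0.318 to 1.17% in library 2, the last with an upper limit of 2.14%. Without the very large cell the library 2 share was 4.35%. Thinned to 1000 UMIs instead, the venous shares were 4.29% (3 of 70 cells, 0.893 to 12.02%) in library 1 and 2.59% (1.05 to 5.27%) in library 2, against 0 to 0.699% and 0.0933 to 0.812% in the other blood classes. At this depth the venous interval of library 2 overlapped those of Plvap capillary cells (upper limit 1.27%) and arterial cells (1.16%). In library 1 the venous CPM interval (18.9 to 63.8) lay above those of the other blood classes, whose highest limit was 14.35 CPM, while its thinned shares had wide intervals that overlapped theirs. Nr2f2 stood at 330.4 CPM (9 UMIs in 4 cells) and 271 CPM in venous cells with Prox1 UMIs and at 498 and 482 CPM in those without. The very large cell held 0 Nr2f2 UMIs, and without it the library 2 value was 435 CPM. The cells with Prox1 were also deeper, with medians of 7092 and 6535 UMIs against 3857 and 5258, and the part of depth was not tested.

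Cells that passed both the venous and the arterial gate, which were in no comparison above, held Nr2f2 at 515 and 487 CPM and Prox1 at 14.1 and 13.1 CPM. The Nr2f2 intervals overlapped those of the venous class, and the medians of 7900.5 and 7684 UMIs were above those of each compared class. Counted as venous, they lowered the Prox1 differences to 2.81 ± 0.32 from arterial and 2.55 ± 0.25 from capillary cells, and Nr2f2 had 4.26 ± 0.17 and 4.11 ± 0.12. The 91 cells of library 2 that passed both the lymphatic and the blood gate held Prox1 at 282, Maf at 729, Tbx1 at 160 and Nr2f2 at 487 CPM, between the lymphatic and blood levels of that library for each of the 4 genes.

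Within lymphatic cells, the members were found together about as often as their separate shares give. After thinning to 2000 UMIs the median cell held UMIs of 3 of the 7 genes in both libraries. Prox1, Maf and Nr2f2 were seen together in 27 of 54 cells (50%) and 231 of 526 cells (43.9%), against 51.4% and 43.5% if detection were independent. Of the 526 cells of library 2, 3 held none of the 7 genes and 1 held all 7. Over the 21 pairs the phi coefficient, the correlation of detection across cells, ran from -0.07 to 0.08 in library 2 and from -0.28 to 0.46 in library 1. The sign was the same in both libraries for 10 pairs, 7 positive and 3 negative, and opposite for 11. The highest pair of library 2, Foxc2 with Foxp2 (6 cells with both), was negative in library 1 (0 cells), and the highest of library 1, Foxp2 with Gata2 (2 cells with both), was at 0.01 in library 2. With all UMIs kept, 13 pairs were positive in both libraries and all were positive in library 2, from 0.01 to 0.14. In sparse counts such weak values are no finding.

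**Figure D4:**
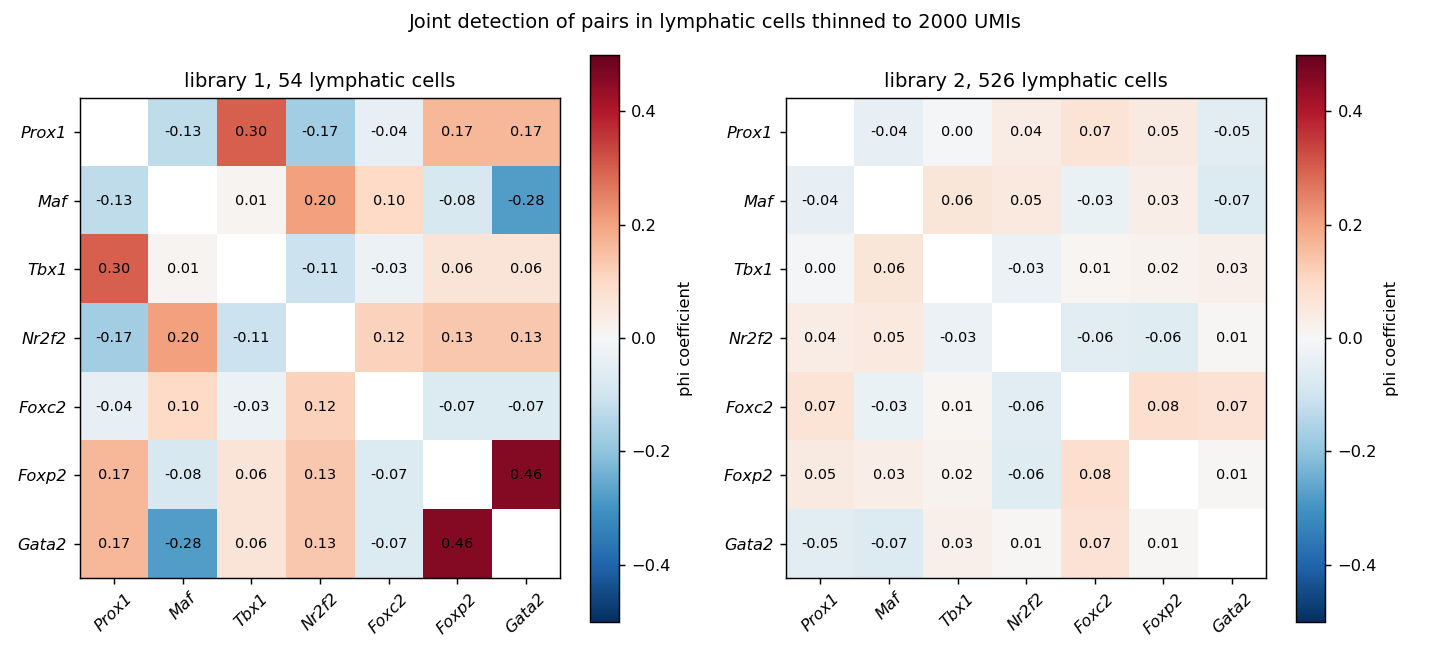
Phi coefficient of joint detection for each pair of the 7 genes (rows and columns) in lymphatic cells thinned to 2000 UMIs, 54 cells of library 1 (left) and 526 of library 2 (right), with the colour scale in phi. The 21 pairs of library 2 stay between -0.07 and 0.08.

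Splits of the lymphatic cells by genes outside the 7 moved none of them past the threshold. Cells were parted at the median of Lyve1, a marker of initial lymphatic capillaries, by UMIs of the interferon response genes Gbp2 and Gbp4 (at least 2 against 0), and by UMIs of the valve genes Cldn11, Itga9 and Gja4 (at least 2 against 0). In each split 0 of 7 members passed in edgeR and 0 in DESeq2, where 0.417%, 1.66% and 0.0692% of all genes passed in edgeR. Cells with more UMIs of the split genes were also deeper, with means of 4442 and 2905 against 2271 and 2299 UMIs for Gbp2/Gbp4 and of 4224 and 3771 against 2829 and 2140 UMIs for the valve genes, and the part of depth was not tested. At an unadjusted edgeR p under 0.05 there were 2 members for Lyve1, 2 for Gbp2/Gbp4 and 0 for the valve genes. The share of all genes at that unadjusted threshold was not taken, so these counts are no finding. Gata2 was at 85.4 and 86.9 CPM in cells of low Lyve1 and at 57.3 and 49.0 CPM in those of high Lyve1 (0.81 ± 0.29, adjusted p = 0.49), and Nr2f2 at 825 and 954 CPM against 1196 and 1056 CPM (-0.25 ± 0.12, adjusted p = 0.999). Both genes kept their direction in both libraries.

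Foxc2 was at 25.01 and 22.2 CPM in lymphatic cells with Gbp2/Gbp4 UMIs and at 41.3 and 59.7 CPM in those without (-1.35 ± 0.43, adjusted p = 0.096). Foxp2 was at 16.7 and 35.4 CPM against 27.5 and 74.0 CPM (-1.05 ± 0.35, adjusted p = 0.12). Both rest on 2 or 3 UMIs a side in library 1. Between cells with and without valve gene UMIs, Prox1 differed by -0.07 ± 0.16, Gata2 by 0.04 ± 0.25 and Foxc2 by 0.16 ± 0.60. This split leaned on Itga9, at 216 and 196 CPM in lymphatic cells, against 49.0 and 39.9 CPM for Gja4 and 32.6 and 30.4 CPM for Cldn11. Whether it set valve cells apart was not tested. Foxc2 gave 0 UMIs in the 21 cells of library 1 with valve gene UMIs and 27 in the 155 of library 2 (46.2 CPM), against 49.1 and 30.7 CPM in cells without, so its libraries disagreed in direction.

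Related genes did not share 1 pattern. Of 24 paralogues of the 7 genes, 12 had enough UMIs for the test between lymphatic and blood cells, and 5 were higher, 3 lower and 4 did not pass, with a median log2 fold change of 0.27, against -0.01 over all genes tested. Over all genes tested there, 21.8% were higher and 24.7% lower. Nr2f1, the closest relative of Nr2f2, was at 61.2 and 32.0 CPM in lymphatic and 0 and 1.69 CPM in blood cells (4.64 ± 0.46, edgeR adjusted p = 2.9e-10). The small Maf gene Maff was at 155 and 135 CPM in lymphatic cells (1.52 ± 0.18), and Tbx3, a T-box relative of Tbx1, was lower there (0 and 2.80 CPM against 52.2 and 67.3, -4.79 ± 0.38). Foxc1, the relative of Foxc2, was highest in venous cells, at 91.3 and 113 CPM. It was lower in lymphatic than in venous cells (-1.88 ± 0.24, adjusted p = 6.9e-09), at 12.2 and 37.1 CPM, and higher in venous than in arterial cells (3.50 ± 0.26, adjusted p = 2.4e-15).

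Of 28 other endothelial transcription factors, all were tested, 6 were higher and 15 lower in lymphatic cells and 7 did not pass, with a median of -0.75. The shares over all genes tested were 21.8% higher and 24.7% lower. Nkx2-3, a homeobox factor of gut and spleen vessels, was at 0 and 9.19 CPM in lymphatic cells against 424 and 449 CPM (-5.87 ± 0.26), and Sox17, an arterial factor, at 0 and 16.8 CPM against 324 and 414 CPM (-4.88 ± 0.24). Tcf15 (-4.04 ± 0.22) and Meox2 (-3.31 ± 0.26) were lower as well. Sox18, which acts upstream of Prox1 in development, did not pass (0.05 ± 0.14), at 457 and 434 CPM against 348 and 444 CPM.

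Of 15 tested VEGF-C pathway genes (18 listed), 6 were higher, 6 lower and 3 did not pass, with a median of 0.06. For this list and those of Prox1 targets and valve genes, the shares over all genes tested were again 21.8% higher and 24.7% lower. The receptor gene Flt4 was at 2102 and 1584 CPM in lymphatic against 96.1 and 88.3 CPM in blood cells (4.21 ± 0.14), and Pdpn, which the sort used, at 278 and 366 against 0 and 2.24 CPM (7.49 ± 0.27). The ligand gene Vegfc was lower in lymphatic cells, at 0 and 3.59 CPM against 61.3 and 75.3 CPM (-4.60 ± 0.35), and Angpt2, a ligand of the Tie2 receptor, was higher (2.59 ± 0.19). Of 7 known targets of Prox1, 5 were higher (Flt4, Pdpn, Angpt2, Nrp2 at 2.11 ± 0.13 and Itga9 at 2.87 ± 0.18), with a list median of 2.59, while Fgfr3 was lower (-3.49 ± 0.38, at 4.08 and 3.59 CPM against 41.5 and 38.1) and Cpt1a did not pass (-0.21 ± 0.24). Of 16 lymphatic valve genes, 5 were higher, 8 lower and 3 did not pass, with a median of -0.43. Sema3a, a repulsive guidance ligand, was higher (9.05 ± 0.37, at 97.9 and 125 CPM against 0 and 0.228), whereas Nrp1, a receptor subunit for it, was lower (-6.35 ± 0.23, at 0 and 18.8 CPM against 1182 and 1254).

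Likeness was measured as Pearson's r of log2(CPM + 1) over the 10 class sums, which share 2 libraries and 5 classes, among 10740 genes. Maf was most like Ptpa (r = 0.994), Cox14 and Psme1, Tbx1 like Slc45a3 (0.987), Ripor3 and Wnt2, and Foxp2 like Adamts15 (0.994), Ank2 and Reep1. The size of a difference does not enter r. Ptpa was at 97.9 and 103 CPM in lymphatic cells and at 36.5 to 51.2 CPM in the blood classes, where Maf was near the floor. Prox1 was most like Pros1 (0.981), Grn and Vldlr, and Nr2f2 like Fxyd6 (0.989), Fam124a and Sirpa. Pros1 was at 343 and 338 CPM in lymphatic cells and at 94.9 to 183 CPM in the blood classes. Fxyd6 shared the lymphatic and venous levels of Nr2f2 in kind, at 886 and 896 CPM in lymphatic, 241 and 149 CPM in venous and at most 7.89 CPM in the other classes. Foxc2 was most like Igsf3 (0.969), Megf6 and Nectin1, and Gata2 like Alpl (0.978), Smpdl3a and Adgre5. Among the 7 genes, Maf, Tbx1 and Foxp2 were the most alike, with r from 0.968 to 0.980, and Prox1 was nearest to Nr2f2 (0.887). Gata2 was negative with each of the other 6, from -0.42 with Maf to -0.88 with Nr2f2.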

How the data were processed

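Single-cell 3′ RNA was measured in 2 libraries. The authors deposited raw counts, whole UMIs per gene and barcode, made with bcl2fastq 2.2 and Cell Ranger 3.1.0 on mm10, per the submitters' processing notes. Further counting settings are not named there. The cell filter asked for 500 or more genes and no more than 15% of UMIs from mitochondrial genes (978 and 6067 cells). Scrublet in scanpy 1.11.5 called 4 and 5 doublets (0.409% and 0.0824%), too few in library 2 to be relied on, and these were removed, leaving 974 and 6062 cells.

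UMIs were summed per library and class and tested with edgeR 4.0.16 (quasi-likelihood, robust, TMM scaling, expression filter at a minimum count of 10, the library as a replicate block, since all classes were drawn from the same 2 libraries). P-values were adjusted over all genes tested. The SE is the absolute log2 fold change over the square root of F. Residual degrees of freedom were 1 for lymphatic against blood and the splits and 4 in the fit of 5 classes, so the tests lean on the variance pooled over genes. Gate genes were not tested. The test code was run on simulated sums with known changes, for lymphatic against blood and venous against arterial only. Those sums had a fixed spread and no library effect, so they do not check the splits or the spread of these data. Named genes were the 7 members, up to 4 genes per list and comparison (largest changes among genes that passed and reached 50 CPM, in each library, in the class where they were higher) and the 3 genes most like each member. Nr2f1, Nrp2, Sox18, Fgfr3 and Cpt1a were also named after their values were seen. The members and lists were chosen with earlier results of these data known.

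Alternatives were other scalings, DESeq2 1.42.0, no filter, no block, other gates and cell filters, equal cell numbers and each library alone. Ccl21a, with 2 rows, was not used.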

Additional observations from a re-analysis of the deposited data

How the results depend on the processing

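The 23 differences of single members that passed were refitted 345 times: 340 refits kept direction and call, 5 lost the call (named in the text: Gata2 between arterial and capillary cells, and Prox1 between the capillary kinds 4 times) and 0 reversed. Of the 40 that did not pass, 14 of 573 refits passed and 55 changed sign. Some of these refits repeated the main fit and could not differ. Counting cells of both the venous and arterial gates as venous left lymphatic against blood and the splits unchanged. Leaving out blood cells with UMIs of the lymphatic gate genes left the splits unchanged. In either library alone, all 46 values of the passing differences kept their sign, on the log2(CPM + 1) scale. There Maf between lymphatic and venous cells was 10.5 without library 2, Foxp2 4.80 and 5.37 between lymphatic and blood cells and 4.96 and 5.76 between lymphatic and venous cells, Tbx1 6.99 between lymphatic and blood cells without library 1, Tbx1 8.24 between lymphatic and venous cells without library 2, Prox1 2.67 between venous and arterial cells without library 2, and Foxc2 2.67 and 2.90 between venous and capillary cells and 1.28 and 3.37 between arterial and capillary cells.

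Counts of all genes passing moved more. With equal cell numbers they were 2888 for lymphatic against blood (5123 in the main test), 2300 for lymphatic against venous (4241), 1397 for venous against arterial (2336), 517 for arterial against capillary (1075) and 1383 between the capillary kinds (2604). DESeq2 gave 2384, 1369, 494 and 1323 for the same comparisons but lymphatic against venous, and 1762 for venous against capillary (2677). With no replicate block there were 1428 for venous against arterial, 514 for arterial against capillary and 1358 between the capillary kinds. For the Lyve1 split (32) the counts were 15 with gates at 3 UMIs, 90 with cells of both gates assigned, 20 with thinned gates, 7 with no block, 0 with equal cells and 0 in DESeq2. For the Gbp2/Gbp4 split (109) they were 10 with no block, 0 with equal cells and 0 in DESeq2. For the valve split (4) they were 24 and 7 with gates at 8 and 3 UMIs, 15 with cells of both gates assigned, 9 with the stricter cell filter, 18 without the highest doublet scores, 27 with no filter on low counts, 1 in DESeq2 and 1 without very large cells and cells with other markers. The cause was not tested. Without scaling factors the median of all genes shifted by up to 0.18 on the log2 scale. Under thinned gates the Gbp2/Gbp4 and valve splits, and with equal cells the valve split, were not run, since a side had under 20 cells.

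Depth limits Foxc2 and Foxp2 most, at 6 and 13 UMIs in the lymphatic cells of library 1.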
